A study of Mus musculus with 48 samples.

Results

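The 10 genes described here encode the MHC class II molecules of the mouse and their master regulator. They are the classical chains H2-Aa, H2-Ab1 and H2-Eb1, the invariant chain Cd74, the transactivator Ciita, the H2-DM chains H2-DMa, H2-DMb1 and H2-DMb2, and the H2-O chains H2-Oa and H2-Ob. They were chosen by name from the 55487 genes of the deposited count tables, and all 10 passed the filter on low counts in every comparison. Their levels were followed across 16 groups of 3 libraries each, made from 4 sorted myeloid cell types. These were subcapsular sinus macrophages (SSM), medullary sinus macrophages (MSM), resident dendritic cells (rDC) and migratory dendritic cells (mDC). Each type was labelled as taken from a lymph node (LN) or from a tumor-draining lymph node (TDLN), after PBS or cisplatin, a platinum drug that crosslinks DNA. All 16 groups carry the genotype label wild type, and no transgene or deletion is named. The series describes treatment of tumor-bearing mice, but strain, age, tumor, dose and the site of the LN are not given in the sources used here.

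MHC class II molecules show peptides from ingested proteins to CD4 T cells. An alpha and a beta chain pair in the endoplasmic reticulum with the invariant chain CD74, which plugs the peptide groove and directs the complex to endosomes. There proteases trim CD74 to a short remnant, H2-DM exchanges the remnant for antigenic peptides, and H2-O, known mainly from B cells and some dendritic cells, restrains H2-DM. CIITA binds no DNA itself; it is recruited by the RFX, CREB and NF-Y factors that sit side by side on the promoters of these genes. Dendritic cells that mature and migrate are known to reduce Ciita transcription while class II protein stays on their surface.

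On GRCm38, 8 of the 10 genes lie on chromosome 17 within 224 kb, from 34092340 to 34316674. In chromosome order these are H2-Oa (34092340 to 34095234), H2-DMa (34119541 to 34139101), H2-DMb2 (34143307 to 34151555), H2-DMb1 (34153072 to 34160230), H2-Ob (34238903 to 34254414), H2-Ab1 (34257689 to 34269419), H2-Aa (34282744 to 34287823, minus strand) and H2-Eb1 (34305867 to 34316674). Ciita lies on chromosome 16 (10480059 to 10528418), and Cd74 on another chromosome. RefSeq promoter entries on GRCm38.p6, running from 250 bases before to 50 bases after the start, were matched for 7 of the 10 genes, and 6 of them held the letters GATTGG on the strand of the gene within 100 bases before the start. GATTGG contains an inverted CCAAT, the kind of site that NF-Y binds and that is called the Y box in class II promoters. The 60-base windows of these 6 are shown because they carry the part that the family shares. GATTGG is in capitals, and so is AGNAAC where it lies 20 to 40 bases before GATTGG on the same strand.
H2-Aa: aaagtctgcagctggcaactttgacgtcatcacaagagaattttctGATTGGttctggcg
H2-Eb1: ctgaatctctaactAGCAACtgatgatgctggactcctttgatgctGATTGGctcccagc
H2-DMb1: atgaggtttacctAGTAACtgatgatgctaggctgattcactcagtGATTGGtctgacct
H2-DMb2: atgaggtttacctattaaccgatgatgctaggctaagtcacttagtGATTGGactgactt
H2-Oa: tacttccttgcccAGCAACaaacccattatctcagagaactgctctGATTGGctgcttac
H2-Ob: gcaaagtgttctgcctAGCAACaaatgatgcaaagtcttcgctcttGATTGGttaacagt
These windows lie at chr17:34287859-34287918 (minus strand), chr17:34305761-34305820, chr17:34153083-34153142, chr17:34145112-34145171, chr17:34092289-34092348 and chr17:34238801-34238860 (plus strand). GATTGG began 49 bases before the start of H2-Aa, 60 before H2-Eb1, 62 before H2-DMb1, 91 before H2-DMb2, 44 before H2-Oa and 58 before H2-Ob. Of all 32851 promoter entries, 16.1% held GATTGG and 48.1% held AGNAAC on either strand. The spaced pair on 1 strand was found in 124 entries, or 0.377%, and in 4 of the 6 windows shown, with 24 to 27 bases between the motifs. The letters AGNAAC and the spacing were picked after the members' promoters had been read, so these shares are a description. The entry of H2-DMa at its first start held no GATTGG, and that at a second start held it 199 bases before the start. H2-Ab1, Cd74 and Ciita had no entry. The windows of H2-DMb1 and H2-DMb2 resemble each other over most of their length, and so do their transcripts. Of all 31-base stretches, 36.4% of H2-DMb1 and 34.4% of H2-DMb2 are found in the other gene, the highest share among the 45 pairs of members. How reads of those stretches were divided between both genes is an estimate, so the balance of the pair is uncertain.

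Levels are read counts relative to library size (CPM), scaled over the 24 libraries of each count table. Differences are log2 fold changes ± standard error from edgeR's quasi-likelihood test, called where the Benjamini-Hochberg adjusted p over all genes was below 0.05. Whether the libraries of a group stem from different animals is not labelled, and the p-values then measure the spread between libraries, which may be technical. In bulk RNA, fewer expressing cells and less RNA per cell cannot be told apart. The depth of the macrophage libraries ranged from 6.46 to 10.4 M counts, and that of 18 dendritic cell libraries from 2.00 to 3.84 M. The other 6, all of mDC TDLN PBS and rDC LN PBS, held 10.7 to 15.5 M, so depth and group cannot be told apart there; with these thinned to 3 M counts, every dendritic cell count of called members stayed within 1.5 times. Of the macrophage libraries, 4 resembled the other cell type's label: replicate 2 of both types in the LN with PBS, and in the TDLN with cisplatin replicate 1 of MSM and replicate 3 of SSM. Over 7998 genes these crossed libraries correlated at no more than 0.751 with their own label and at least 0.990 with the other. In addition, rDC TDLN CIS 2 stood apart from its group, and results that rest on these libraries are given with and without them. The 3 libraries labelled MSM LN CIS went against their label as a group: Adgre1, which encodes F4/80, averaged 3.64 ± 0.258 CPM there and Siglec1, the CD169 gene, 0.0954 ± 0.165, against 386 ± 14.9 and 181 ± 7.4 CPM in SSM LN CIS. In the TDLN with PBS, Adgre1 averaged 299 ± 10.7 CPM in MSM and 286 ± 10.3 in SSM, and Siglec1 141 ± 11.7 and 11.7 ± 3.26. Siglec1 was thus low under the SSM label there, and Adgre1 did not separate the labels. The label of mDC went with Ccr7, the receptor for migration to nodes, at 14230 ± 396 CPM in mDC LN PBS and 1059 ± 49 in rDC LN PBS. Flt3 did not set rDC above mDC, at 480.0 ± 1.0 CPM in rDC LN PBS and 705 ± 22.3 in mDC LN PBS. Zbtb46 averaged 144 ± 1.41 and 499 ± 26.8 CPM in these groups. The 10 dendritic cell markers summed to 2836 to 2946 CPM in rDC LN PBS and 24437 to 24917 in mDC LN PBS. The 14 macrophage markers summed to 3169 to 3280 and 760.0 to 810.0 CPM. The rDC LN PBS libraries also carried Siglech of plasmacytoid dendritic cells at 859 ± 44.9 and Cd79a of B cells at 679.7 ± 53.3 CPM.

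In dendritic cells the class II genes were among the abundant messages. Together the 10 genes took 5.95 to 6.12% of all counts in the 3 rDC LN PBS libraries and 1.76 to 1.84% in those of mDC TDLN PBS, the highest and lowest groups. On the deposited TPM scale, which accounts for transcript length, Cd74 averaged 41501 TPM in rDC LN PBS, H2-Ab1 28323, H2-Aa 12180 and H2-Eb1 9216. The H2-DM and H2-O chains and Ciita followed at 1342 TPM for H2-DMb1, 1071 for H2-DMa, 905 for H2-DMb2, 675 for H2-Ob, 331 for H2-Oa and 285 for Ciita. In mDC LN PBS the order began with the same 4 genes, at 14895, 6448, 4229 and 3274 TPM, while H2-Ob was the lowest of the 10, at 30.1 TPM.

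The classical alpha chain gene H2-Aa is given first as an example. Its CPM were 6952, 7106 and 6991 in the 3 rDC LN PBS libraries, 4822, 4389 and 4496 in rDC LN CIS, 4935, 4936 and 5003 in rDC TDLN PBS and 4704, 5576 and 4691 in rDC TDLN CIS. In mDC they were 2858, 2825 and 2761 in LN PBS, 3778, 3849 and 4019 in LN CIS, 2102, 2039 and 2081 in TDLN PBS and 2434, 2362 and 2377 in TDLN CIS. Every rDC library was above every mDC library, and the mDC LN CIS libraries lay between the other mDC groups and rDC. Ordered by mean, rDC LN PBS was highest, the middle rDC groups rDC TDLN CIS and rDC TDLN PBS overlapped, and no other neighbours in the order overlapped.

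Ciita, the coactivator that sets class II transcription, had a wider gap. Its CPM were 761, 746 and 774 in rDC LN PBS, 676, 616 and 641 in rDC LN CIS, 722, 684 and 661 in rDC TDLN PBS and 580.1, 816 and 659 in rDC TDLN CIS. In mDC they were 138, 150.4 and 129 in LN PBS, 224, 254 and 260.5 in LN CIS, 129, 137 and 119 in TDLN PBS and 204, 182 and 180.0 in TDLN CIS. The 3 rDC TDLN CIS libraries spanned the other rDC groups, and rDC TDLN PBS overlapped LN CIS but not LN PBS. In mDC, LN PBS and TDLN PBS overlapped, while both cisplatin groups of mDC lay above both PBS groups. H2-Ob, the beta chain of the H2-DM inhibitor, spanned the widest range of the 10, 20.1-fold between the mean of rDC LN PBS (593 CPM) and that of mDC LN PBS (29.6 CPM). Its CPM were 551, 657 and 571 in rDC LN PBS and 28.7, 31.6 and 28.4 in mDC LN PBS. Cd74 spanned the narrowest, 2.67-fold between rDC LN PBS (29207 CPM) and mDC TDLN CIS (10954 CPM). The plot of the 10 genes by dendritic cell group shows all libraries.

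**Figure D1:**
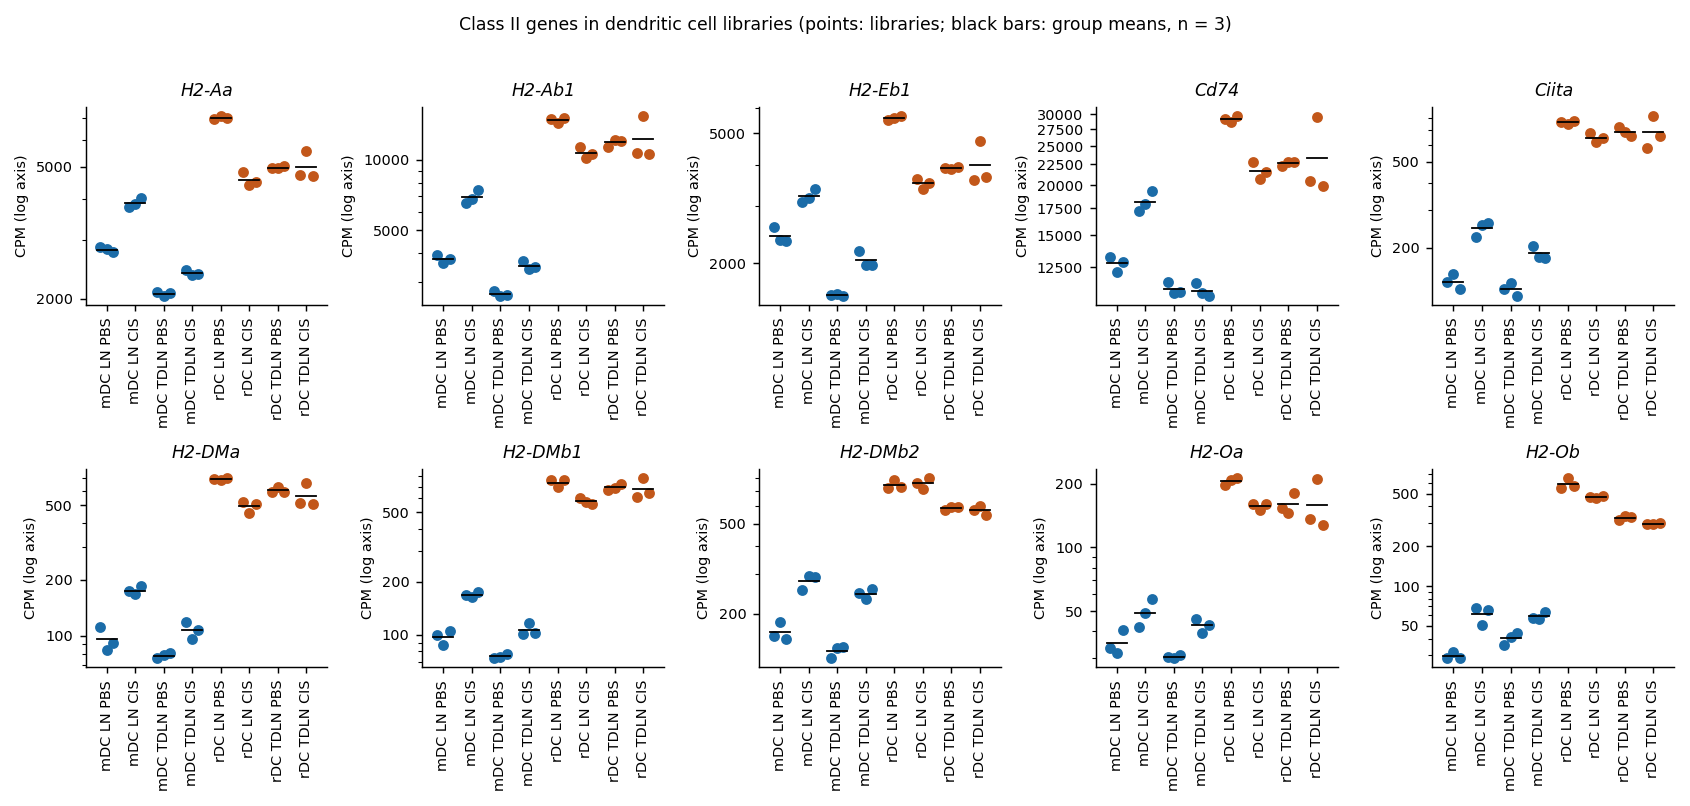
Level of each class II gene in the 24 dendritic cell libraries, in CPM on log axes, with a point per library and a bar at the mean of 3. Blue mDC libraries lie below orange rDC libraries in the PBS groups of every panel; over all 8 groups the highest mean is 2.67-fold (Cd74) to 20.1-fold (H2-Ob) the lowest, and in rDC TDLN CIS 1 library lies above the other two in most panels.

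Comparing mDC with rDC asks how class II expression differs between dendritic cells that arrived from tissue and those that live in the node. All 10 genes were lower in mDC over the 4 conditions, where 38.9% of all genes tested were called lower; the median of the 10 was -1.89 log2 units and that of all genes -0.06. The H2-DM and H2-O chains and Ciita differed most. H2-Ob differed by -3.15 ± 0.05 (adjusted p = 7.04e-30), H2-DMb1, a beta chain of the peptide exchanger, by -2.65 ± 0.04 (adjusted p = 2.90e-29), H2-DMa, its alpha chain, by -2.42 ± 0.05, H2-Oa by -2.14 ± 0.07, Ciita by -2.04 ± 0.05 and H2-DMb2, the other beta chain, by -1.74 ± 0.04. The classical alpha and beta chains and the invariant chain differed less, H2-Ab1 by -1.64 ± 0.05, H2-Aa by -0.97 ± 0.03, H2-Eb1 by -0.90 ± 0.04 and Cd74 by -0.90 ± 0.04. None of these 10 directions changed in the alternatives of scaling, filter, tool, block or left-out library that were run.

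The gap was smallest in the LN with cisplatin. In the LN with PBS all 10 genes were lower in mDC (background 35.0%), with a median of -2.30, and in the TDLN with PBS again all 10 (background 35.4%), with a median of -2.29. With cisplatin the medians were -1.42 in the LN, where 9 were lower (background 28.7%), and -1.83 in the TDLN, where all 10 were (background 28.6%). The gene not called in the LN with cisplatin was H2-Eb1, a classical beta chain, at -0.14 ± 0.07, adjusted p = 0.122. Its CPM there were 3087, 3169 and 3382 in mDC and 3633, 3387 and 3516 in rDC, close but without overlap. Cd74 differed by -0.26 ± 0.09, adjusted p = 0.0147 in the same groups, and lost its call without mDC LN CIS 1 or rDC LN CIS 1, at -0.22 both times, and with DESeq2. In the LN with PBS, by contrast, H2-DMa was 112, 84.3 and 92 CPM in mDC and 691, 688 and 701 in rDC (-2.83 ± 0.10), and H2-Oa, the alpha chain of H2-O, was 33.5, 31.6 and 40.6 and 198, 209.5 and 213 (-2.54 ± 0.15).

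**Figure D2:**
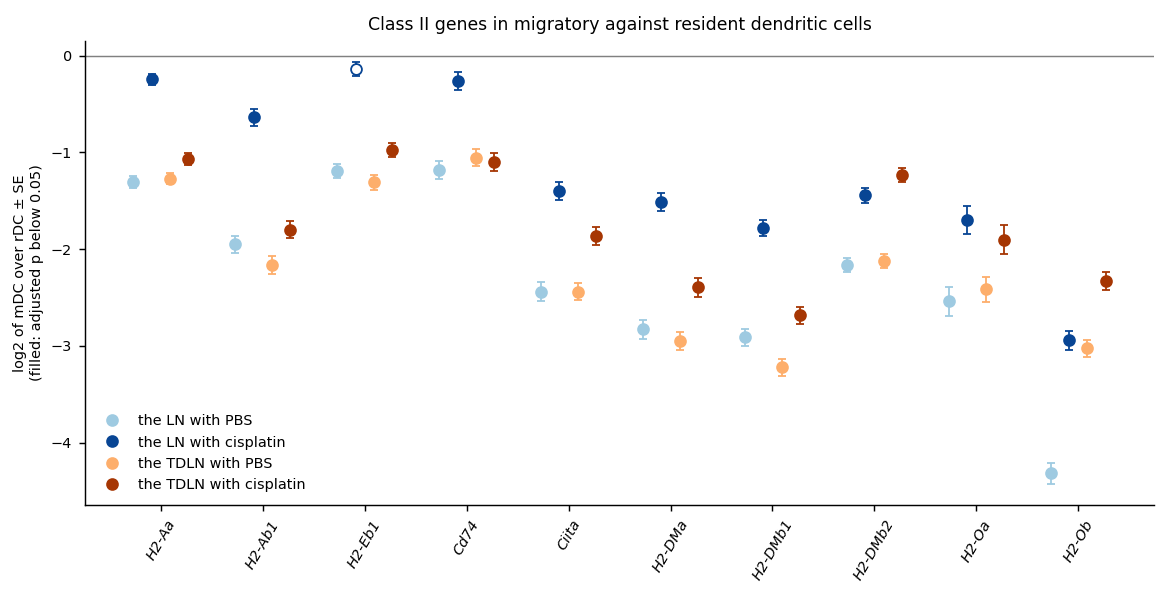
Log2 difference of mDC from rDC ± SE for each class II gene in the LN and TDLN with PBS or cisplatin, filled where the adjusted p was below 0.05. Every point lies below 0, H2-Ob in the LN with PBS is lowest at -4.32, and the LN cisplatin points lie nearest to 0 for 8 of the 10 genes.

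B cells express class II genes, and B cell markers moved with this comparison. The summed level of 12 B cell markers was 214 to 236 CPM in mDC LN PBS, 443 to 482 in mDC LN CIS, 403 to 435 in mDC TDLN PBS and 590.0 to 605 in mDC TDLN CIS. In rDC it was 4320 to 5005 in LN PBS, 4284 to 4578 in LN CIS, 2564 to 2716 in TDLN PBS and 2367 to 2487 in TDLN CIS. All 12 markers were lower in mDC than in rDC in each condition, and none was at 0 in any dendritic cell library. The 8 plasmacytoid dendritic cell markers summed to 203 to 302 CPM in mDC, 2597 to 2784 in rDC LN PBS and 4354 to 4564 in rDC TDLN PBS. Their part in the class II difference was not tested.

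Class II transcripts were higher in mDC after cisplatin. In the LN all 10 genes were higher after cisplatin than after PBS, where 6.15% of all genes were called higher, and the median of the 10 was 0.74 against -0.01 for all genes. H2-Ab1, the classical beta chain, went from 3933, 3647 and 3787 CPM to 6566, 6777 and 7428 CPM, with no overlap (0.83 ± 0.05, adjusted p = 7.16e-11). Its partner chain H2-Aa changed less (0.42 ± 0.04, adjusted p = 1.88e-07), as did H2-Eb1 (0.37 ± 0.05, adjusted p = 4.62e-05). For Cd74, which chaperones these chains, CPM were 13304, 12152 and 12905 with PBS and 17270, 17931 and 19378 with cisplatin (0.47 ± 0.05, adjusted p = 5.49e-07). Ciita rose by 0.78 ± 0.08, adjusted p = 3.10e-07, and its levels are given above.

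The peptide-editing chains rose in the same mDC libraries. H2-DMa was 112, 84.3 and 92 CPM with PBS and 173, 167 and 184 with cisplatin (0.80 ± 0.09, adjusted p = 1.94e-06), and H2-DMb1 was 99.6, 86.6 and 104 and 168, 163 and 175 (0.75 ± 0.08, adjusted p = 8.05e-07). H2-DMb2 was 159, 184 and 154 and 254, 295 and 292 (0.72 ± 0.08, adjusted p = 3.97e-07). The groups did not overlap for any of these chains. H2-Ob, with 28.7, 31.6 and 28.4 CPM against 67.9, 50.8 and 66.2, had the largest log2 difference of the 10 (1.03 ± 0.14, adjusted p = 1.71e-05). H2-Oa, the other H2-O chain, was near the limit, with 33.5, 31.6 and 40.6 CPM against 41.9, 48.8 and 56.8 (0.42 ± 0.14, adjusted p = 0.0482). Its call was lost on leaving out any of mDC LN PBS 1, mDC LN PBS 2, mDC LN CIS 2 and mDC LN CIS 3, with adjusted p up to 0.177 and a log2 difference no lower than 0.32. Beside these genes, 11 of 12 B cell markers rose and none fell (sums above), and the 14 macrophage markers went from 760.0 to 810.0 to 1182 to 1250 CPM. The part of either in the rise was not tested.

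In the TDLN 9 of the 10 genes were higher in mDC after cisplatin (background 14.1%), with a median of 0.61 against -0.01 for all genes. H2-DMb2 led, at 127, 141 and 142 CPM with PBS and 246, 233 and 258 with cisplatin (0.98 ± 0.07, adjusted p = 3.73e-10), without overlap. Ciita followed (0.69 ± 0.07, adjusted p = 2.83e-07), and then H2-Ob, at 35.9, 41.4 and 44.5 and 57.3, 56 and 63.7 CPM (0.67 ± 0.11, adjusted p = 8.68e-05). H2-DMb1 rose by 0.64 ± 0.08, H2-Oa by 0.63 ± 0.12, H2-DMa by 0.58 ± 0.09, H2-Ab1 by 0.54 ± 0.05, H2-Eb1 by 0.49 ± 0.05 and H2-Aa by 0.34 ± 0.04. Cd74 did not pass the test. Its CPM were 11480, 10785 and 10863 with PBS and 11468, 10781 and 10615 with cisplatin, overlapping, and its fitted difference of 0.12 ± 0.05 (adjusted p = 0.0708) became -0.15 and was called lower (adjusted p = 0.00578) when genes of low counts were kept in the scaling. That setting moved the median of all genes by -0.28 and left 8 members higher and 1 lower; relative to the median of all genes the members stood at 0.62 under both. Fitted differences in these groups also lie 0.13 to 0.14 above those of the CPM levels, since the fits scale 12 libraries and the levels 24. Here 10 of 12 B cell markers rose and none fell, and their part was not tested.

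In rDC no such rise was called. In the TDLN none of the 10 differed between cisplatin and PBS by edgeR (background in either direction 1.01%), none at an unadjusted p below 0.05 and none by DESeq2. Their log2 differences ran from -0.15 (H2-Ob) to 0.05 (H2-Ab1), with standard errors of 0.07 to 0.14. The library rDC TDLN CIS 2 lay above the other cisplatin libraries for most members, and had 29576 CPM of Cd74 beside 20421 and 19945 in the other two. Without it H2-DMa alone was called, lower by -0.23 (adjusted p = 0.0358). None of 12 B cell markers was called in either direction there, while 7 of 8 T cell markers fell and 4 of 14 macrophage markers rose.

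In the LN 6 of the 10 genes were lower in rDC after cisplatin (background 7.17%), and none was higher. H2-Eb1 was 5487, 5584 and 5660 CPM with PBS and 3633, 3387 and 3516 with cisplatin (-0.59 ± 0.09, adjusted p = 4.51e-04), and H2-Aa differed by -0.54 ± 0.08, adjusted p = 2.29e-04. H2-DMa was 691, 688 and 701 and 520.0, 454 and 507 CPM (-0.41 ± 0.09, adjusted p = 0.00679). These 3 genes kept their calls whichever library was left out. H2-Ab1 (-0.38 ± 0.12, adjusted p = 0.0289), Cd74 (-0.35 ± 0.12, adjusted p = 0.0462) and H2-Ob (-0.25 ± 0.07, adjusted p = 0.0268) were also called, but without rDC LN CIS 2 these 3 were lost and the count was 3. H2-Ab1 and Cd74 lost their calls on leaving out any of 4 libraries, rDC LN PBS 1, rDC LN PBS 3, rDC LN CIS 2 and rDC LN CIS 3, at log2 values of -0.37 to -0.39 and -0.34 to -0.36, and H2-Ob was also lost without rDC LN PBS 2, at -0.20. Ciita (-0.16 ± 0.10, adjusted p = 0.316), H2-DMb1 (-0.27 ± 0.09, adjusted p = 0.0515), H2-DMb2 (0.10 ± 0.07, adjusted p = 0.335) and H2-Oa (-0.32 ± 0.14, adjusted p = 0.132) did not pass, although H2-DMb1 did without rDC LN CIS 1 (-0.36) or rDC LN PBS 2 (-0.35). Markers of other cells moved in the same libraries. All 8 T cell markers rose, with sums of 53.5 to 76.9 CPM with PBS and 228 to 249 with cisplatin, and so did all 6 NK cell markers (6.33 to 11.8 and 74.3 to 82.3 CPM). Of 10 dendritic cell markers 8 fell (2836 to 2946 and 2207 to 2372 CPM in sum), and of 14 macrophage markers 4 fell and 2 rose. Of the B cell markers 1 rose and 1 fell, and their summed levels overlapped. The part of these markers was not tested. The PBS group here is 1 of the 2 deep groups.

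**Figure D3:**
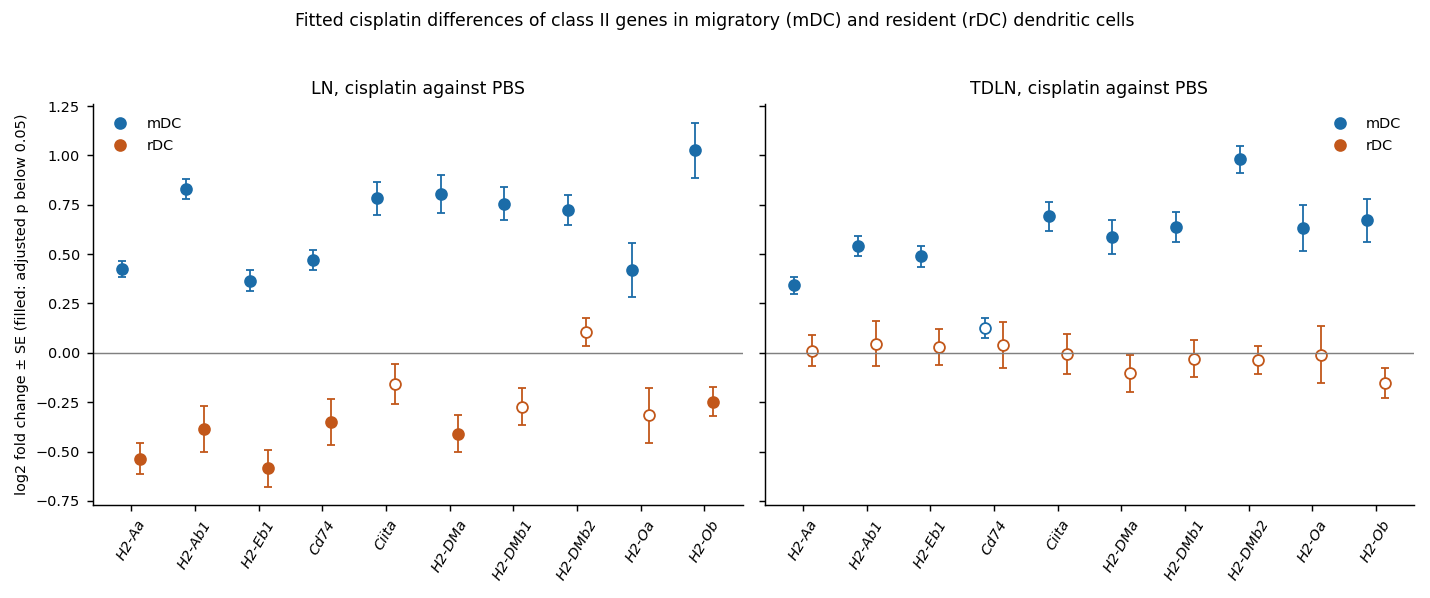
Log2 difference of cisplatin from PBS ± SE for each class II gene in mDC (blue) and rDC (orange), with the LN on the left and the TDLN on the right, filled where the adjusted p was below 0.05. In the LN all 10 mDC points lie above 0 and 6 filled rDC points below it; in the TDLN 9 mDC points are filled and no rDC point is, and the mDC point of Cd74 is the one that turned to -0.15 when genes of low counts were kept.

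The difference between the cell types was then tested itself, a comparison added after the values had been seen. In the LN the cisplatin effect was higher in mDC than in rDC for all 10 genes (background 10.6%), by a median of 1.06 log2 units and from 0.72 (H2-DMb2) to 1.38 (H2-Ob). In the TDLN it was higher for 6 of 10 (background 5.88%), namely H2-DMb2 (0.89 ± 0.10, adjusted p = 8.18e-07), H2-Ob (0.69 ± 0.13, adjusted p = 6.41e-04), Ciita (0.57 ± 0.13, adjusted p = 0.00375), H2-DMa (0.56 ± 0.13, adjusted p = 0.00546), H2-DMb1 (0.54 ± 0.12, adjusted p = 0.00297) and H2-Eb1 (0.33 ± 0.10, adjusted p = 0.0352). H2-Eb1 was near the limit and lost its call in 11 of 12 fits that left out 1 library, with log2 values of 0.24 to 0.55 over the 12. Without rDC TDLN CIS 2 the count rose to 10, and Cd74 turned from -0.04 to 0.24. Of the B cell markers, 10 of 12 had a higher cisplatin effect in mDC than in rDC in the LN and 7 of 12 in the TDLN, and their part was not tested.

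Most class II genes were lower in mDC of the TDLN than of the LN. In mDC with PBS 9 of the 10 genes were below their LN level in the TDLN (background 14.3%), with a median of -0.46. H2-Eb1 was 2588, 2354 and 2330 CPM in the LN and 1602, 1614 and 1585 in the TDLN (-0.77 ± 0.05, adjusted p = 3.79e-10), and H2-Ab1 was 3933, 3647 and 3787 and 2755, 2623 and 2639 (-0.67 ± 0.05, adjusted p = 1.93e-09). Both groups stood apart for both genes. H2-Ob went the other way without passing the test (0.30 ± 0.13, adjusted p = 0.0994), and passed it without mDC TDLN PBS 1, at 0.39, and by DESeq2, which gave 1 higher and 7 lower and lost Ciita and H2-Oa. When genes of low counts were kept the count was 1 higher and 3 lower and Ciita turned from -0.28 to 0.07; this setting moved the median of all genes by 0.35, and relative to it the members stood at -0.47 under both. Ciita also lost its call without mDC LN PBS 1 (adjusted p = 0.0512) or mDC TDLN PBS 3 (0.0681), at -0.26 and -0.21, and H2-Oa (-0.39 ± 0.13, adjusted p = 0.0236) without mDC LN PBS 1, mDC LN PBS 3 or mDC TDLN PBS 2, at -0.27 to -0.41. Of the 12 B cell markers 10 were higher in the TDLN and none lower, and of the 10 dendritic cell markers none was higher and 5 were lower. The part of either was not tested.

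With cisplatin, where both mDC groups had like depths, 7 of 10 genes were lower in the TDLN (background 7.21%), with a median of -0.66. H2-Ab1 was 6566, 6777 and 7428 CPM in the LN and 3708, 3414 and 3491 in the TDLN (-0.96 ± 0.05, adjusted p = 4.03e-12), and Cd74 differed by -0.73 ± 0.05, H2-DMa by -0.70 ± 0.09, H2-Aa by -0.69 ± 0.04, H2-DMb1 by -0.67 ± 0.08, H2-Eb1 by -0.65 ± 0.05 and Ciita by -0.37 ± 0.08. H2-DMb2 (-0.18 ± 0.07, adjusted p = 0.0889), H2-Oa (-0.18 ± 0.13, adjusted p = 0.408) and H2-Ob (-0.06 ± 0.12, adjusted p = 0.816) did not pass; H2-DMb2 was called without mDC LN CIS 1, at -0.25. In rDC with PBS 4 genes were lower in the TDLN (background 12.1%), among them H2-Ob, at 551, 657 and 571 CPM in the LN and 315, 339 and 331 in the TDLN (-0.78 ± 0.07, adjusted p = 1.46e-06), without overlap. The others were H2-Eb1 (-0.44 ± 0.09), H2-Aa (-0.43 ± 0.08) and H2-DMb2 (-0.27 ± 0.07). The count was 8 when the 6 compared libraries were fitted alone and 10 when genes of low counts were kept, all lower, the latter with a shift of -0.26 in the median of all genes. With cisplatin H2-Ob (-0.69 ± 0.08, adjusted p = 1.48e-05) and H2-DMb2 (-0.41 ± 0.07, adjusted p = 7.39e-04) were lower in the TDLN (background 6.97%). Without rDC TDLN CIS 1 that count was 4, with H2-Eb1 (0.26) and H2-DMb1 (0.31) higher, and without rDC TDLN CIS 2 it was 3, with H2-Oa turning from 0.01 to -0.25. In rDC 11 of 12 B cell markers were lower in the TDLN under either treatment. Plasmacytoid dendritic cell markers were higher there, 8 of 8 with PBS and 7 of 8 with cisplatin. The 8 T cell markers were all higher in the TDLN with PBS and all lower with cisplatin. The part of these markers was not tested.

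The cisplatin effect differed between nodes for few members. In mDC it was smaller in the TDLN for H2-Ab1 (-0.29 ± 0.07, adjusted p = 0.00801) and Cd74 (-0.34 ± 0.07, adjusted p = 0.00194), 2 of 10 (background 7.17%), and 7 were called when genes of low counts were kept, which moved the median of all genes by -0.32. In rDC H2-Aa (0.55 ± 0.11, adjusted p = 0.00654) and H2-Eb1 (0.61 ± 0.13, adjusted p = 0.00889) had a higher value in the TDLN (background 2.62%). DESeq2 called 4, the setting that keeps genes of low counts called 7, and leaving out rDC TDLN CIS 2 gave 4, adding H2-Ab1 (0.26) and Cd74 (0.22). H2-Ab1 was also added without rDC TDLN CIS 1 or rDC TDLN CIS 3, at 0.56 both times.

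Other genes of the pathway did not share these directions as a block. Class I heavy chains and their loading machinery, which present peptides from inside the cell, stood opposite to class II between the cell types: 11 of 14 were higher in mDC over the 4 conditions and 3 lower, with a median of 0.84. Of all genes 35.6% were higher and 38.9% lower in this comparison. In the LN with PBS, H2-D1 differed between rDC and mDC from 5711 ± 215 to 15441 ± 455 CPM (log2 1.45 ± 0.08), and H2-K1 from 2697 ± 79.4 to 8703 ± 253 CPM (log2 1.70 ± 0.08). Of 11 co-receptors and costimulatory genes 9 were higher in mDC, such as Cd40, the receptor for T cell help, from 97.6 ± 4.93 to 768 ± 17.3 CPM (log2 2.99 ± 0.07) in the LN with PBS. Of 16 processing and turnover genes 11 were higher and 5 lower; Cd83, whose product stabilises surface class II, went from 2946 ± 156 to 8250 ± 538 CPM, and Ctsb, an endosomal protease, from 1343 ± 65.5 to 961 ± 42.6 CPM (log2 -0.47 ± 0.06). Of 21 regulators 10 were higher and 7 lower. Irf1, an interferon-induced factor, went from 336 ± 29.6 to 1971 ± 81.4 CPM (log2 2.56 ± 0.07), and Irf8, a factor of resident and plasmacytoid dendritic cells, from 2185 ± 91.5 to 913 ± 5.79 CPM (log2 -1.25 ± 0.07).

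With cisplatin in mDC of the LN, where all 10 class II genes rose, 4 of 14 class I genes fell and none rose, where 4.82% of all genes fell and 6.15% rose. Among the 4 was H2-K1, from 8703 ± 253 to 7742 ± 415 CPM (log2 -0.21 ± 0.04). Of the regulators 2 rose and 6 fell: Ifngr1, a chain of the interferon gamma receptor, went from 80.3 ± 18 to 118 ± 8.8 CPM (log2 0.54 ± 0.12) and Irf1 from 1971 ± 81.4 to 1561 ± 118 CPM (log2 -0.38 ± 0.05). Of 16 processing genes 3 rose and 1 fell; March1, the ligase that marks class II for turnover, went from 5.81 ± 1.93 to 15.5 ± 1.78 CPM (log2 1.36 ± 0.28). Costimulatory genes rose in 4 of 11 cases and fell in 1, with Cd86 going from 105 ± 13.6 to 131 ± 2.54 CPM (log2 0.29 ± 0.09). In mDC of the TDLN 8 class I genes rose and 3 fell, and 3 regulators rose and 6 fell, where 14.1% of all genes rose and 13.2% fell. Irf8 went from 741 ± 8.78 to 962 ± 24.6 CPM (log2 0.51 ± 0.05) there and Cd86 from 143 ± 9.02 to 229.9 ± 7.77 CPM (log2 0.81 ± 0.07), while Cd83 went from 9944 ± 78.6 to 6369 ± 59.5 CPM (log2 -0.51 ± 0.04). In rDC of the LN no class I gene rose and 5 of 14 fell, 6 of 16 processing genes fell and 1 rose, and 3 of 9 tested costimulatory genes fell. Of the regulators 3 rose and 4 fell, and of all genes 10.7% rose and 7.17% fell. Irf1 went from 336 ± 29.6 to 452 ± 27.5 CPM (log2 0.51 ± 0.09). Cst3, an inhibitor of cathepsins, went from 2976 ± 75.6 to 1588 ± 80.2 CPM (log2 -0.83 ± 0.12), Cd83 from 2946 ± 156 to 1724 ± 62.1 CPM (log2 -0.69 ± 0.07), and Spi1, which encodes the myeloid factor PU.1, from 309.9 ± 18.1 to 190.3 ± 10.4 CPM (log2 -0.62 ± 0.13). In rDC of the TDLN 1 gene of the 4 lists was called, Cd4, from 467 ± 12.9 to 343 ± 28.5 CPM (log2 -0.44 ± 0.08). Of all genes 1.01% were called there in either direction.

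Ratios within a library do not depend on the scaling between libraries. H2-Ab1 to H2-Aa, the classical beta to alpha pair, was 1.47 to 1.56 per transcript length in mDC LN PBS, 1.96 to 2.07 in mDC LN CIS and 2.22 to 2.39 in rDC LN PBS. The ratio of H2-Ob to H2-DMa per length, the inhibitor's beta chain against the exchanger's alpha chain, was 0.18 to 0.30 in mDC LN PBS and 0.58 to 0.70 in rDC LN PBS, and lower in rDC TDLN PBS at 0.38 to 0.41. H2-DMb2 to H2-DMb1 counts stood at 1.48 to 2.12 in mDC LN PBS and 0.95 to 1.14 in rDC LN PBS. All dendritic libraries lay within 1.48 to 2.54 in mDC and 0.77 to 1.45 in rDC, ranges that do not overlap.

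Across the 24 dendritic cell libraries, H2-DMa and H2-DMb1 correlated at 0.996 on log2 CPM, and H2-Aa and H2-Eb1 at 0.993, with the lowest value between members at 0.84 (H2-Eb1 and H2-Ob). Among 10614 other genes of at least 4 CPM, those most like the mean of H2-Aa, H2-Ab1, H2-Eb1 and Cd74 were Plbd1 (r = 0.979), Lgals3 (0.977), Slamf8 (0.976), Olfm1 (0.973) and Plk3 (0.967). Those most like Ciita were Agpat3 (0.993), Coro1a (0.993), Map4k1, Dcaf12 and Plaur (0.990). These are descriptions over libraries that share cell types and sequencing depth.

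Class II genes were also abundant in the macrophage libraries, and their levels there divided libraries of the same label. In MSM LN PBS, H2-DMb2 was 53.5, 573 and 53.4 CPM, and in SSM LN PBS 537, 64.1 and 526. In MSM TDLN CIS it was 838, 81.9 and 88.7, and in SSM TDLN CIS 806, 825 and 83. In each of these groups the library that resembles the other label (the second in both PBS groups, the first of MSM and the third of SSM with cisplatin) lies with the other cell type. Ciita showed the same split, with 67.9, 301 and 68.9 CPM in MSM LN PBS and 311, 64.5 and 289 in SSM LN PBS. In the plot by macrophage group these libraries are drawn open.

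**Figure D4:**
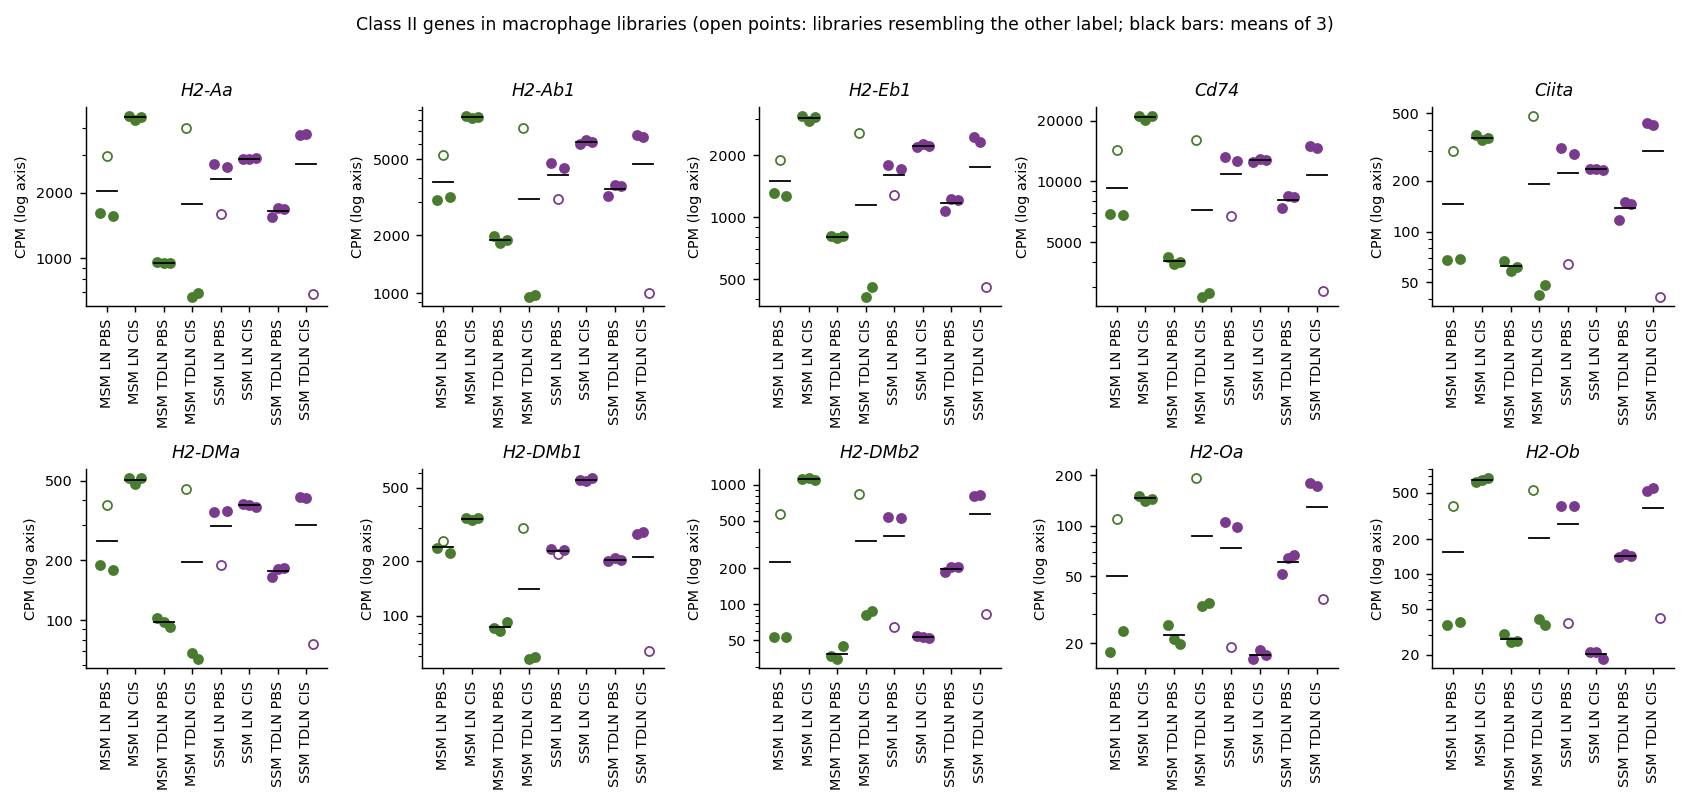
Level of each class II gene in the 24 macrophage libraries, in CPM on log axes, with a point per library, open for the 4 libraries that resemble the other label, and a bar at the mean of 3. H2-Ob has its lowest mean in SSM LN CIS (20.3 CPM) and its highest in MSM LN CIS (648.5 CPM). The open points sit with the other cell type, except for H2-DMb1 in the LN with PBS, where filled points of both labels lie together.

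With all 24 libraries, few macrophage comparisons called a member. MSM against SSM over the 4 conditions called none by edgeR (background in either direction 30.2%), 1 at an unadjusted p below 0.05 and none by DESeq2. Without the 4 libraries all 10 were lower in MSM (background 36.8%), with a median of -0.97. Within conditions none was called in the LN with PBS or the TDLN with cisplatin by either tool (background 0.0% in both, no member at an unadjusted p below 0.05) and none in the TDLN with PBS by edgeR (background in either direction 40.8%; 3 unadjusted, 1 by DESeq2). Without the 4 libraries these became 9 lower (background 33.3%), 10 lower (29.6%) and 10 lower (39.0%). In the TDLN with PBS, a comparison that holds none of the 4, H2-Ob was 30.1, 25.7 and 26.5 CPM in MSM and 139, 147 and 142 in SSM, and Ciita 67, 58.2 and 61.7 and 118, 149 and 145, both without overlap. Their differences of -2.38 ± 1.08 and -1.14 ± 0.85 became -2.38 ± 0.07 and -1.15 ± 0.07 once the spread was estimated without the 4 libraries. The 4 were set apart by their profiles in these same data. Errors, p-values and counts of calls without them, here and below, are conditional on that choice. Each group that loses a library then holds 2. B cell markers summed to 524 to 551 CPM in MSM TDLN PBS, with 2 of the 12 at 0, and to 1459 to 1503 in SSM TDLN PBS. The 10 neutrophil markers summed to 10875 to 11190 and to 293 to 326 CPM in these groups. The 14 macrophage markers summed to 24241 to 24625 and to 13104 to 13583 CPM. Median neutrophil sums were 6214 CPM in MSM LN PBS and 287 in SSM LN PBS. With cisplatin they were 7761 in MSM and 939 in SSM of the TDLN, and 83.9 and 248 in the LN. The part of these markers was not tested.

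The LN with cisplatin ran the other way. With all libraries 3 genes were higher in the libraries labelled MSM (background 20.7%): H2-Ob (adjusted p = 0.00256), H2-DMb2 (4.39 ± 1.10, adjusted p = 0.00317) and H2-Oa (3.09 ± 0.79, adjusted p = 0.00372). DESeq2 called H2-Oa alone. The CPM of H2-Ob were 625, 648 and 672 in MSM LN CIS and 21.4, 21.1 and 18.5 in SSM LN CIS, those of H2-DMb2 1117, 1140 and 1095 and 53.8, 53.5 and 52.5, and those of H2-Oa 151, 141 and 145 and 16.1, 18.1 and 17. H2-DMb1, near-identical to H2-DMb2 in part, had the opposite order, at 344, 333 and 341 and 549.6, 546 and 567 CPM. Without the 4 libraries, none of which belongs to these 2 groups, 9 were higher (background 33.1%) and H2-DMb1 lower (-0.64 ± 0.05; background 39.3%). Beside these values, the libraries labelled MSM LN CIS had 14 macrophage markers at 1824 to 1909 CPM in sum against 25979 to 26418 in SSM LN CIS. Their B cell markers summed to 5860 to 5984 against 508 to 516 CPM, and Ccr7 averaged 3494 ± 99.3 against 435 ± 8.02. All 8 mast cell markers and all 6 NK cell markers were higher there too. The part of these in the class II levels was not tested.

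For cisplatin in MSM of the TDLN, H2-DMb2 alone was called higher in the edgeR fit of all libraries (3.13 ± 1.09, adjusted p = 0.0447). That is 1 of 10 members, a share below the background of 25.6%. Its cisplatin libraries reached 838 CPM with MSM TDLN CIS 1 and 88.7 without it. Without MSM TDLN CIS 1 and the other 3 libraries, the sign of most members turned: 7 were lower (background 27.4%) and 3 higher (41.6%). H2-Ab1 was 1986, 1826 and 1893 CPM with PBS and 955 and 981 CPM in the 2 cisplatin libraries kept, and 7302 in the one left out. Its difference went from 0.71 ± 0.65 to -0.95 ± 0.04 (adjusted p = 1.53e-12). H2-DMb2 (1.17 ± 0.08), H2-Oa (0.63 ± 0.12) and H2-Ob (0.52 ± 0.09) were the 3 higher. In the same libraries macrophage markers summed to 24241 to 24625 CPM with PBS and to 8519 and 8357 in the cisplatin libraries kept. Mast cell markers summed to 216 to 229 CPM with PBS and to 3497 and 3550 with cisplatin, and B cell markers to 524 to 551 and to 790 and 834 CPM. Their part was not tested. In MSM of the LN no member was called with all libraries by edgeR or DESeq2 (background in either direction 43.4%, none at an unadjusted p below 0.05), and all 10 were higher without the 4 (background 33.4%), from 0.57 ± 0.06 (H2-DMb1) to 4.38 ± 0.08 (H2-DMb2). The cisplatin group there is MSM LN CIS, whose macrophage markers are described above; the sum in MSM LN PBS was 13777 to 18635 CPM, 13 of the 14 fell with all libraries, and so did all 10 neutrophil markers.

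In SSM of the TDLN cisplatin called no member with all libraries by either tool (background in either direction 23.0%, none at an unadjusted p below 0.05). Without SSM TDLN CIS 3 and the other 3 libraries all 10 were higher (background 34.6%), from 0.48 ± 0.05 (H2-DMb1) to 2.03 ± 0.05 (H2-DMb2). Ciita was 118, 149 and 145 CPM with PBS and 436 and 427 in the cisplatin libraries kept, with 41.1 in the one left out (1.65 ± 0.08 without it). In the same groups B cell markers summed to 1459 to 1503 CPM with PBS and, in the 2 libraries kept, to 5876 and 5927 CPM with cisplatin, and mast cell markers to 122 to 134 CPM and to 1944 and 1982. T cell markers ran the other way, at 2350 to 2532 CPM with PBS. Over all 3 cisplatin libraries they summed to 354, 359 and 2055 CPM, lowest first. The part of these markers was not tested. In SSM of the LN H2-Ob (-3.74 ± 0.95, adjusted p = 0.028) and H2-DMb2 (-2.82 ± 0.83, adjusted p = 0.0495) were lower after cisplatin (background 7.42%). H2-DMb2 had 537, 64.1 and 526 CPM with PBS and 53.8, 53.5 and 52.5 with cisplatin, without overlap, the second PBS library being the nearest. In this comparison 8 of 12 B cell markers and all 8 mast cell markers fell too. The B cell markers summed to 4704, 620.4 and 4576 CPM in the PBS libraries and to 508 to 516 with cisplatin, and the mast cell markers to 1183, 574 and 1153 and to 55.6 to 61.2 CPM. Macrophage markers had a higher sum with cisplatin, at 25979 to 26418 CPM against 13717 to 17992 with PBS. T cell markers summed to 479, 520 and 1983 CPM with PBS, lowest first, and to 1395 to 1451 with cisplatin. The part of these markers was not tested. Without the 4 libraries 4 members were lower (background 29.9%) and 4 higher (30.1%), H2-DMb1 by 1.29 ± 0.05, and Ciita turned from 0.07 to -0.34.

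Between nodes, MSM with PBS had 1 member lower in the TDLN with all libraries, H2-DMb1 (-1.48 ± 0.52, adjusted p = 0.0467; background 26.6%), and 8 without the 4 (background 40.7%), from -0.46 ± 0.09 (H2-Ob) to -1.41 ± 0.06 (H2-DMb1), with Ciita (-0.15 ± 0.08) and H2-Oa (0.10 ± 0.13) not called. With cisplatin none was called by edgeR (background in either direction 43.3%; 4 unadjusted, 3 by DESeq2), and 10 were lower without the 4 (background 32.8%), from -2.09 ± 0.11 (H2-Oa) to -4.06 ± 0.08 (H2-Ob). In the cisplatin comparison of MSM the LN group is MSM LN CIS, whose macrophage markers are described above. B cell markers summed to 5860 to 5984 CPM there and to 790 and 834 in the TDLN libraries kept. Neutrophil markers summed to 82.6 to 84.4 and to 7761 and 7995 CPM. In SSM with PBS none was called by either tool (background in either direction 19.7%, none unadjusted), and 10 were lower without the 4 (background 33.8%), from -0.15 ± 0.05 (H2-DMb1) to -1.41 ± 0.06 (H2-Ob). For SSM with PBS, B cell markers summed to 4704 and 4576 CPM in the LN libraries kept and to 1459 to 1503 in the TDLN. T cell markers of SSM with PBS summed to 479, 520 and 1983 CPM in the LN, lowest first, and to 2350 to 2532 in the TDLN. For MSM with PBS, B cell markers summed to 608 to 4743 CPM in the LN and to 524 to 551 in the TDLN. Macrophage markers of MSM with PBS summed to 13777 to 18635 and 24241 to 24625 CPM, and neutrophil markers to 343 to 6436 and 10875 to 11190. The part of these markers was not tested. With cisplatin 3 were higher in the TDLN (background 8.79%), H2-Ob (4.19 ± 0.97, adjusted p = 0.0154), H2-DMb2 (3.42 ± 0.86, adjusted p = 0.0219) and H2-Oa (2.93 ± 0.66, adjusted p = 0.0139), and H2-DMb1 was lower (-1.39 ± 0.41, adjusted p = 0.0396; background 8.65%). Without the 4 libraries 7 were higher (background 30.1%) and H2-DMb1 lower (31.8%). Beside these calls, 10 of 12 B cell markers and all 8 mast cell markers were higher in SSM of the TDLN with cisplatin, and their part was not tested. Most of these calls in the fits of all libraries were near the limit, and were lost on leaving out 1 library mostly with little change in the log2 value. Between nodes in MSM with PBS, H2-DMb1 lost its call whichever of the 6 libraries was left out, at -1.52 to -1.36. Between nodes in SSM with cisplatin the count was 0 without any 1 of the SSM LN CIS libraries and 2 without SSM TDLN CIS 1, while H2-Ob stayed at 3.80 to 4.73 over the 6 fits. For cisplatin in SSM of the LN, both calls were lost without any 1 of the SSM LN CIS libraries, SSM LN PBS 1 or SSM LN PBS 3, with H2-Ob at -4.23 to -3.38 over the 6 fits and H2-DMb2 at -3.30 to -2.47. For cisplatin in MSM of the TDLN, H2-DMb2 lost its call without any 1 of the MSM TDLN PBS libraries, and without MSM TDLN CIS 1, where its log2 value was 1.16. Leaving out a crossed library alone gave 10 calls between nodes in MSM with cisplatin (MSM TDLN CIS 1), 10 for cisplatin in SSM of the TDLN (SSM TDLN CIS 3) and 3 for cisplatin in MSM of the LN (MSM LN PBS 2). In simulated data with the spread of all libraries, the test of cisplatin in the TDLN recovered 10% of 2-fold changes in MSM and in SSM, and 95% in mDC.

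H2-Ob and the balance of the H2-DMb genes varied widely over the libraries of the 4 cell types, but neither set all 4 types apart. H2-DMb2 to H2-DMb1 counts ran from 0.09 to 0.10 in SSM LN CIS to 3.22 to 3.43 in MSM LN CIS, and stood at 0.42 to 0.48 in MSM TDLN PBS and 0.94 to 1.03 in SSM TDLN PBS. The ratio of H2-Ob to H2-DMa per length ran from 0.03 to 0.04 to 0.93 to 1.00 in the same 2 groups. The macrophage values behind this ratio have lost their decimals, so it is coarse where H2-Ob is low. Libraries with more B cell marker RNA had more H2-Ob in the plot, from 18.5 to 67.9 CPM of H2-Ob in the 24 libraries with up to 878 CPM of markers, over 139 to 147 CPM in SSM TDLN PBS, to 293 CPM or more in the 21 libraries with at least 2367 CPM. The H2-DMb2 to H2-DMb1 ratio did not follow the markers in dendritic cells, where mDC had fewer B cell markers and the higher ratio. Count tables of the 2 cell classes were scaled separately, so levels are set side by side across them without a test, and the part of B cells was not tested.

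**Figure D5:**
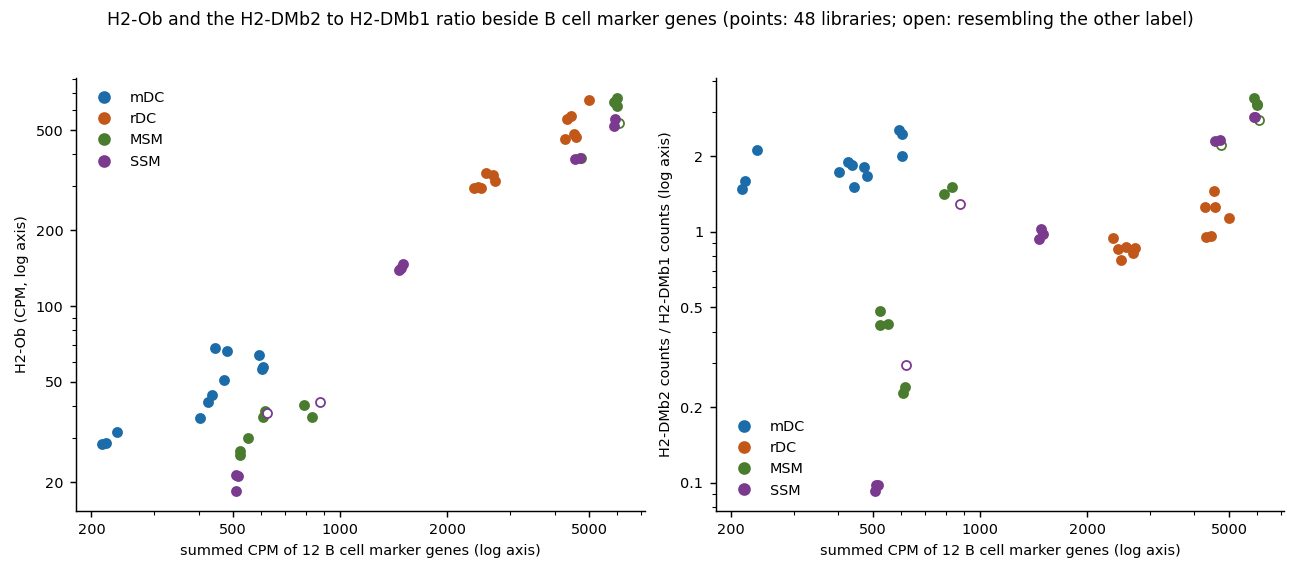
H2-Ob in CPM (left) and the ratio of H2-DMb2 to H2-DMb1 counts (right) against the summed CPM of 12 B cell markers in 48 libraries, on log axes, with open points for the 4 libraries that resemble the other label. H2-Ob is high where markers are high, up to 672 CPM in MSM LN CIS, while the ratio spans 0.09 to 3.43 and is above 1.4 in mDC at few markers.

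In the 24 macrophage libraries H2-Ab1 and H2-Eb1 correlated at 0.995 on log2 CPM, and H2-DMb1 and H2-Oa at 0.232, the lowest value between members. Of 10535 other genes, Tpst1 (r = 0.964), Nckipsd (0.945), Mrto4 (0.945), Nifk (0.944) and Dnajc13 (0.943) were most like the mean of H2-Aa, H2-Ab1, H2-Eb1 and Cd74. Cybc1 (0.971), Siglech (0.967), Unc93b1 (0.966), Ppp4r1 (0.964) and Pip4p1 (0.964) were most like Ciita. The points share the 4 libraries above and the MSM LN CIS group, so these lists describe the libraries as deposited.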

How the data were processed

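RNA of 48 sorted cell samples was sequenced from poly(A) libraries made with a stranded kit, per the labels' protocols, and 4 tables of 55487 genes were deposited. Per the submitters' processing notes the tools included STAR, RSEM 1.3.0 and DESeq2 1.38.3, with the GRCm38 genome; how each was set is not given in the sources used here. The count tables hold RSEM's expected counts, deposited by the authors as whole numbers. The dendritic cell TPM table holds the authors' TPM values, which account for transcript length and depth. The macrophage table is treated as a score, since its deposited TPM values have lost their decimals. Its values are not printed, apart from the ratio of H2-Ob to H2-DMa per length that was taken from them. Columns were matched to samples by name; in the dendritic cell tables the columns named for tumor were taken as TDLN and the rest as LN, by elimination.

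Counts were tested with edgeR 4.0.16 (R 4.3.3): TMM scaling, the default filter on low counts by group, quasi-likelihood fits over the 12 libraries of a cell type, or the 24 of a table for comparisons of cell types, and Benjamini-Hochberg adjustment over all genes at 0.05. Levels are CPM scaled over 24 libraries; correlations used log2(CPM + 1). A fold change of a fit and of the levels can differ, since the scaling differs: by 0.13 to 0.14 log2 units for cisplatin in mDC of the TDLN, by -0.16 to -0.19 for the nodes in mDC with PBS, and by 0.08 or less elsewhere. Simulated data with known changes were used to test the fits; 100% of 4-fold changes were recovered for cisplatin in mDC of the TDLN, 98% in rDC, 75% in MSM and 73% in SSM. Alternatives were DESeq2 1.42.0, its size factors, no low-count filter, a replicate block, fits of only the compared libraries, thinning of libraries above 5 M counts to 3 M counts, each library left out, and the 4 crossed libraries left out.

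The members, gene lists and tests were chosen with earlier results of these data known. Members could be named in any comparison; of each pathway list up to 4 called genes with the highest CPM could be named. Precision is limited by 3 libraries a group.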

Additional observations from a re-analysis of the deposited data

Results flagged for a closer look

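Some cisplatin effects differed between groups by a test of the difference itself, by edgeR, with p-values adjusted over all genes. Between nodes, TDLN minus LN, the effect in mDC differed for H2-Ab1 (log2 difference -0.29) and Cd74 (-0.34), and in rDC for H2-Aa (0.55) and H2-Eb1 (0.61). Between dendritic cell types, mDC minus rDC, it differed in the LN for all 10 genes, by 1.06 for H2-Aa, 1.32 for H2-Ab1, 1.05 for H2-Eb1, 0.92 for Cd74, 1.04 for Ciita, 1.32 for H2-DMa, 1.13 for H2-DMb1, 0.72 for H2-DMb2, 0.84 for H2-Oa and 1.38 for H2-Ob. In the TDLN it differed by 0.33 for H2-Eb1, 0.57 for Ciita, 0.56 for H2-DMa, 0.54 for H2-DMb1, 0.89 for H2-DMb2 and 0.69 for H2-Ob. The comparisons between cell types were chosen after the values had been seen.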

How the results depend on the processing

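Among the dendritic cell comparisons, most counts of called members stayed close to those reported and kept their direction under the alternatives run. When genes of low counts were kept, 4 members were called between nodes in mDC with PBS (1 higher, 3 lower), 7 in the node difference in mDC, 10 between nodes in rDC with PBS and 7 in the node difference in rDC; Cd74 turned to -0.15 for cisplatin in mDC of the TDLN and Ciita to 0.072 between nodes in mDC with PBS. This setting moved the median of all genes by up to 0.50 log2 units, in the cell type difference in the LN. DESeq2 called 4 members in the node difference in rDC, 3 between nodes in MSM with cisplatin, 4 for cisplatin in SSM of the LN (1 higher, 3 lower), and 1 each for MSM against SSM in the LN with cisplatin and in the TDLN with PBS. With DESeq2's size factors 1 was called between nodes in MSM with cisplatin. Fitted alone, the 6 compared libraries gave 8 calls between nodes in rDC with PBS, 0 for cisplatin in MSM of the TDLN, 6 in MSM of the LN and 6 between nodes in MSM with PBS. The cause was not tested for these.

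Within a cell type, deviations of same-numbered libraries correlated above 0.1 for every number in 1 of 24 pairs of groups, so no general pairing was seen. The check cannot decide between LN PBS and TDLN CIS in MSM or SSM, since both groups hold a crossed library. Values there ran from -0.72 to 0.70 in MSM and from -0.72 to 0.71 in SSM. With 3 libraries a group the check has little power elsewhere. Whether the numbers pair libraries of different cell types was not checked. With the replicate block 0 members were called for cisplatin in MSM of the TDLN, 0 between nodes in MSM with PBS, 1 lower between nodes in MSM with cisplatin, 0 for cisplatin in SSM of the LN and 2 between nodes in SSM with cisplatin; Cd74 was no longer called for cisplatin in rDC of the LN.

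Without the 4 crossed libraries, called members numbered 10 for cisplatin in MSM of the TDLN (3 higher, 7 lower), 10 in MSM of the LN, 10 in SSM of the TDLN and 8 in SSM of the LN (4 higher, 4 lower). They numbered 8 and 10 between nodes in MSM with PBS and cisplatin, and 10 and 8 (7 higher, 1 lower) in SSM. MSM against SSM gave 10 over the conditions, 9 in the LN with PBS, 10 in the LN with cisplatin (9 higher, 1 lower), 10 in the TDLN with PBS and 10 in the TDLN with cisplatin. Directions that turned, with a call on at least 1 side, were those for cisplatin in MSM of the TDLN of H2-Aa (-0.47), H2-Ab1 (-0.95), H2-Eb1 (-0.86), Cd74 (-0.53), Ciita (-0.44), H2-DMa (-0.54) and H2-DMb1 (-0.54), and Ciita for cisplatin in SSM of the LN (-0.34). Between nodes in SSM with cisplatin H2-Aa (0.38), Cd74 (0.22) and H2-DMa (0.14) turned, and for MSM against SSM over the conditions H2-DMb2 (-1.13), H2-Oa (-0.76) and H2-Ob (-1.14) did; without the LN cisplatin groups too, these 3 were -2.96, -2.03 and -3.16, and 10 were called. Other values turned without a call in either fit, here and on leaving out 1 library.

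Leaving out each library in turn gave 3 to 7 calls for cisplatin in rDC of the LN, 0 to 1 in rDC of the TDLN, 2 to 4 between nodes in rDC with cisplatin, 2 to 4 in the node difference in rDC and 5 to 10 in the cell type difference in the TDLN. In macrophages it gave 0 to 3 for cisplatin in MSM of the LN, in MSM of the TDLN and in SSM of the LN, 0 to 10 in SSM of the TDLN and between nodes in MSM with cisplatin, 0 between nodes in MSM with PBS, 0 to 4 between nodes in SSM with cisplatin, and 0 to 7 for MSM against SSM over the conditions. Values of single genes that turned and were called on at least 1 side were H2-Oa between nodes in rDC with cisplatin (-0.25 to 0.15), Cd74 in the cell type difference in the TDLN (-0.17 to 0.24), and H2-Ab1 (-0.95 to 1.14), H2-Eb1 (-0.87 to 0.94) and H2-DMb1 (-0.55 to 1.08) for cisplatin in MSM of the TDLN.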
